A study of Mus musculus with 19 samples.

Results

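Motile cilia genes were followed in mouse endometrium, the inner lining of the uterus, at estrus and at day 3.5 after coitus (day 3.5 pc). The set was defined by gene symbol: every gene of the deposited counts whose mouse symbol begins with Dnah, Dnaic, Dnali, Cfap, Drc, Tekt or Rsph and a number, plus Foxj1, Mcidas, Gmnc, Ccdc39, Ccdc40, Pifo, Rfx2 and Rfx3. This gave 74 of 49089 genes. They comprise 31 Cfap genes, 15 dynein heavy chains, 8 radial spoke (Rsph) genes, 6 regulators, 5 tektins, 3 dynein intermediate or light chains, 3 Drc genes, the 2 ruler genes Ccdc39 and Ccdc40, and Dnah2os, an RNA antisense to Dnah2.

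A motile cilium is built on the axoneme, a ring of microtubule doublets around a central pair. Outer and inner dynein arms drive the sliding of the doublets, radial spokes and the nexin-dynein regulatory complex control it, the ruler proteins set the spacing of these parts, and tektins lie along the doublets. Foxj1 is the forkhead transcription factor that switches on this programme, the RFX factors act with it, and Mcidas and Gmnc act upstream of it in cells that grow many cilia. In the female tract such cells are best known in the oviduct and are also found in uterine epithelium, while sperm tails use many of the same genes.

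All females were wild-type C57Bl/6 mice, those mated being 8 to 14 weeks old and the age of the virgin ones not given in the sources used here, and endometrium was scraped from the myometrium and pooled, with the number of animals in a pool not given in the sources used here. The CONT group (3 libraries, numbered 1, 2 and 4) was virgin females taken around ovulation. INT (4 libraries) came from females mated to intact Balb/c males, and SVX, SVX_VAS and VAS (4 libraries each) from females whose Balb/c mates had been modified by surgery, all sampled on day 3.5 pc. The sample titles give these 3 groups other surgeries than their count columns do (the columns named SVX are titled vasectomised, SVX_VAS seminal vesicle-deficient and VAS both), so the column names are used here as names only and no surgery is assigned. All 16 mated samples share the day, the mating and the strain of the mate, which CONT lacks, while the strain of the females is the same in all groups. Per the study's methods, mated females were killed at midday and virgin females were sampled late in the evening. Time of day therefore cannot be told apart from day and mating. How the pools within a group were kept separate is not given, so p-values measure the spread between these samples, which may be partly technical.

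The libraries held 12661266 to 31781270 counts on genes. VAS replicates 2 and 3 stood apart from the other 17 libraries. Tsix, the antisense partner of Xist, had 0.280 and 0.470 CPM (counts scaled to library size with TMM factors) there against 179 to 292 in the other libraries, and Malat1 had 548 in both against 8263 to 14054. Across genes, log2 CPM of these 2 libraries correlated at 0.984 with each other and at 0.750 to 0.777 with the other VAS libraries. Results from the main filter on the VAS group are therefore given with and without them, and the reason for the difference was not tested. Each gene's error is estimated over all libraries of the fit, so these 2 libraries also enter the errors of comparisons without VAS.

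Levels differed widely over the set, with up to 120 CPM for Dnah14 in INT replicate 4. Of the 74 genes, 35 had at least 3 CPM in at least 3 libraries and were tested, beside 17222 of all 49089 genes. A further 17 members reached 1 CPM in at least 3 libraries, and 22 did not. Per kilobase of exon, the highest level at estrus was that of Cfap298, a factor in dynein arm assembly, with 17.5 ± 1.95 CPM per kb (SD, n = 3). The next were Cfap97 with 8.14 ± 0.187, Cfap20, a protein of the doublet's inner junction, with 7.54 ± 0.110 and Cfap36 with 7.35 ± 0.355 CPM per kb, 3 levels that lie close together. In INT Cfap36 stood first with 13.3 ± 1.17 CPM per kb (SD, n = 4) and Cfap298 second with 11.7 ± 0.834, whereas Dnah5 had 0.990 ± 0.501.

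The upstream fate genes of multiciliated cells were at or near 0. Mcidas had at most 0.189 CPM and Gmnc at most 0.653 CPM. Of the markers of motile ciliated cells outside the set, Sntn had no count in any of the 19 libraries, Ccdc153 reached 0.132 CPM and Tmem212 0.943 CPM. Other genes that such cells use were not uniformly low. Rsph1 lay between 0.515 and 1.98 CPM, Tekt1 between 0.108 and 2.19, and Dnah9 between 0.329 and 3.11, but Foxj1 had 5.61 to 8.04 CPM and Dnah12 14.3 to 28.4 in CONT, and Dnah5 reached 29.8 CPM in the mated libraries. Sperm-defining transcripts were near 0 too: Prm1 reached 0.645, Prm2 0.366, Tnp1 0.140 and Tnp2 0.515 CPM. The sperm and spermatid list, 19 genes, summed to 95.3 to 115 CPM in CONT and 100.4 to 135 in the mated libraries.

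Because RFX factors bind the promoters of many cilia genes, the sequences just before the starts of the members were read in RefSeq promoter windows (GRCm38.p6, 250 bases before to 50 after each start), which were found for 61 of the 74 genes. The letters GTTGCC, the core of the site that RFX factors bind, on either strand, were in the windows of 24 of the 61 members (39.3%) and of 3821 of all 27025 genes with a window (14.1%). The forkhead core GTAAACA, searched separately on both strands, was in 4 of the 61 (6.56%) against 4.05% of all genes. Stretches of 60 bases before the start follow for 6 members that later paragraphs describe, the first 5 higher in INT (Tekt1 only with the looser 1 CPM filter, and counted as not tested here) and the last an RFX gene itself, with the RFX core or its reverse complement GGCAAC in capitals.
Tekt2 (chr4:126325689-126325748, minus strand): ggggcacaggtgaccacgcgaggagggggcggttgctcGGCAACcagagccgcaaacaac
Tekt1 (chr11:72361883-72361942, minus strand): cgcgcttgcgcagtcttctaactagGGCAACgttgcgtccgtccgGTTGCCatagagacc
Cfap300 (chr9:8042965-8043024, minus strand): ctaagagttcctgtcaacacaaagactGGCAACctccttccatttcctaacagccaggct
Dnah7b (chr1:46066663-46066722, plus strand): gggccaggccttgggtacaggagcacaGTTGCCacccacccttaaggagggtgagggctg
Dnah7c (chr1:46425272-46425331, plus strand): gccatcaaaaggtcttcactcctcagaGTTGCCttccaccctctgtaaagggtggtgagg
Rfx2 (chr17:56831092-56831151, minus strand): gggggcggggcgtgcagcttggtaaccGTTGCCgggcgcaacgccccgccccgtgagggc
The capitals start 22 bases before the start in Tekt2, 15 and 35 in Tekt1, which has both orientations, 122 in Cfap300, 163 in Dnah7b, 219 in Dnah7c and 116 in Rfx2. A match describes letters only and is not evidence that a factor binds there. The RFX core was in 5 of 16 members higher in INT than in CONT, 1 of 2 lower, 6 of 14 not called and 12 of 29 not tested. The windows of Dnah5, Dnah12 and Dnah1 held neither motif.

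The comparison of INT with CONT asks how the endometrium differs between estrus and day 3.5 pc after an intact mating. Of the 35 tested motile cilia genes, 16 were higher on day 3.5 pc, beside 20.9% of all genes tested, and 10 of the 16 had passed the filter on low counts only through mated libraries. The 16 comprise 8 dynein heavy chains and single genes or a few of the Cfap, ruler, Drc, Rsph and Tekt families. Dnah5 had the largest rise, with a mean level 37.4 times that at estrus, a ratio that rests on 2, 8 and 11 counts in CONT. Lower were 2 of the 35, Dnah12 and Cfap100, beside 12.7% of all genes, and the regulator Foxj1 was 4.19 times lower in mean without passing the test.

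With edgeR's quasi-likelihood test, a gene is called at a Benjamini-Hochberg FDR of 0.05 or less over all genes tested and a logFC (log2 fold change) of at least 0.58 in size. The shares given beside the members' counts are over all 17222 genes tested. Of the 35 members, 13 reached 3 CPM in no CONT library and so passed the filter only through mated libraries, and 10 of the 16 higher members are among them: Cfap300, Cfap70, Dnah1, Dnah2, Dnah5, Dnah6, Dnah7c, Dnah8, Drc3 and Tekt2. The count of higher members and the median logFC of the 35 are therefore not independent of the filter. Of the other 22, which reached 3 CPM in at least 1 CONT library, 6 were higher (beside 20.9% of all genes tested) and 2 lower (12.7%). The median logFC of the 35 was 0.36 and that of all genes tested was -0.01. The INT and CONT libraries did not overlap for 20 of the 35 with INT higher, beside 31% of all genes tested, and for 5 with INT lower, beside 31.3%. With a minimum of 1 CPM, 21 of 52 members were higher (19.9% of all genes) and 7 lower (12.8%), though some members passed this minimum through 1 side of the comparison alone. In bulk tissue, fewer cells of a type and less RNA per cell cannot be told apart.

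**Figure D1:**
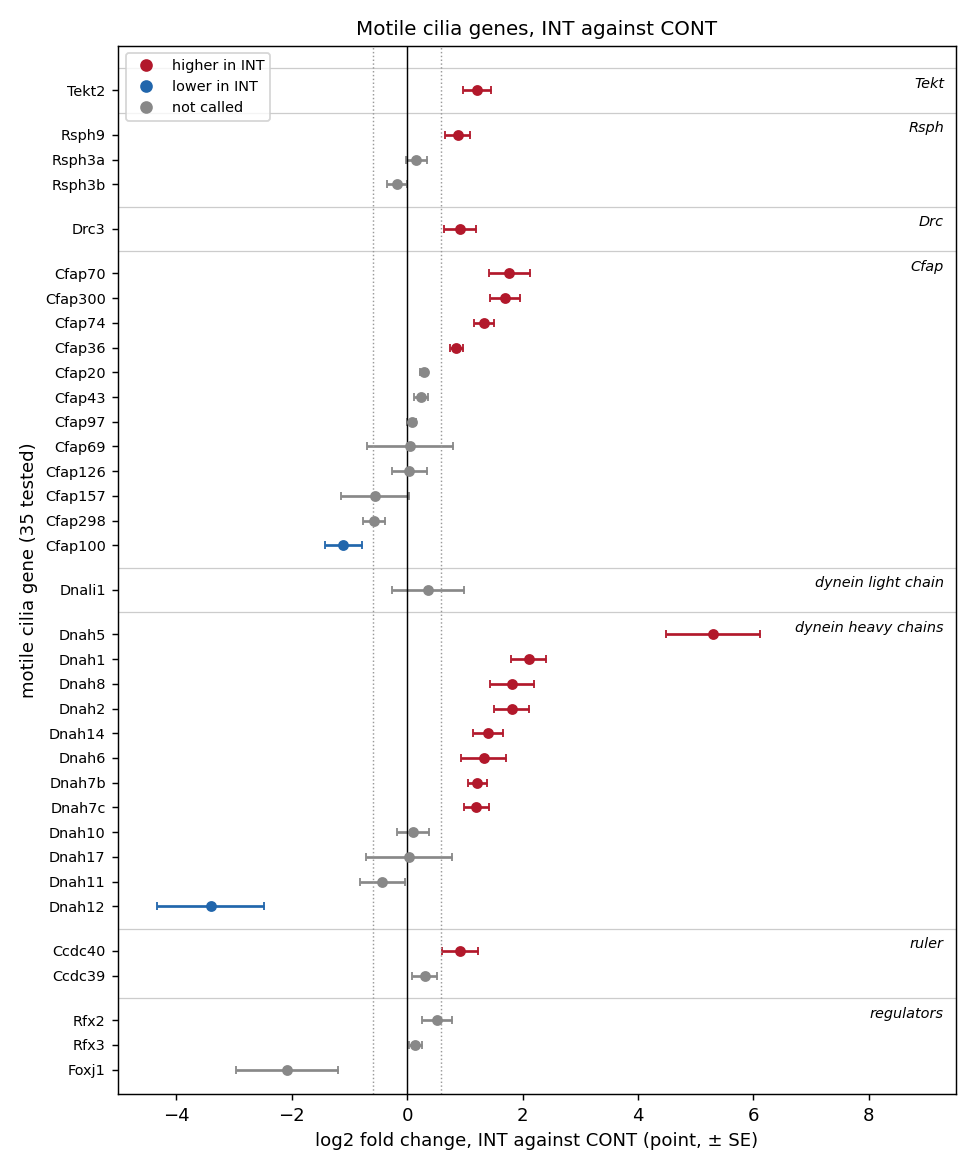
Log2 fold change between INT and CONT (horizontal axis, point and ± SE) for the 35 tested motile cilia genes, grouped by family, with dotted lines at ±0.58. Called genes lie on both sides of 0, 16 of them higher and 2 lower, with Dnah5 at 5.30 and Dnah12 at -3.40 at the ends.

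Among the regulators, Foxj1 (chr11:116330704-116335399, minus strand) had 6.30, 8.04 and 5.61 CPM in CONT replicates 1, 2 and 4. It had 3.10, 2.14, 0.342 and 0.770 CPM in INT replicates 1 to 4, so that every INT library lay under every CONT library. The logFC was -2.07 ± 0.89 (SE) with an FDR of 0.0639 in edgeR's test, outside the threshold, and it was inside with DESeq2 (FDR 0.0438), limma-voom (0.00424) and without VAS replicates 2 and 3 (0.0470). It also was inside with only the groups compared in the fit (0.0195) and without INT replicate 1 (0.0397) or SVX_VAS replicate 4 (0.0259). Foxj1 passed the filter, which uses CPM without TMM factors, through 6 libraries, among them the 3 of CONT.

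The RFX factors were not called with all libraries. Rfx3 was at 42.3 to 45.3 CPM in CONT and 46.6 to 51.4 in INT (logFC 0.14 ± 0.11, FDR 0.330). Rfx2 was at 7.07 to 9.17 CPM in CONT and 6.81 to 14.9 in INT, and these ranges overlap through INT replicate 1 alone, the other 3 being at 11.6 to 14.9 (logFC 0.51 ± 0.26, FDR 0.118). Without INT replicate 1, Rfx2 was called higher (logFC 0.70, edgeR FDR 0.0199). Pifo, which acts at the ciliary base, had 1.66, 2.30 and 2.58 CPM in CONT and 0.681, 0.252, 0.0570 and 0.210 CPM in INT, where counts were 9 or fewer. It missed the main filter, and with the 1 CPM minimum it was lower in INT (logFC -2.93 ± 0.67, edgeR FDR 0.00201). It reached 1 CPM in the 3 CONT libraries, in 1 mated library and in none of INT, so it passed that filter through the group where it is high.

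Of the ruler genes, Ccdc40 rose from a mean of 3.27 ± 0.913 CPM (SD, n = 3) to 6.15 ± 1.27 (SD, n = 4), with a logFC of 0.92 ± 0.32 and an edgeR FDR of 0.0252. That call is lost on leaving out CONT replicate 1 (FDR 0.116), CONT replicate 2 (0.0714), INT replicate 3 (0.0662) or INT replicate 4 (0.0703), and with glmTreat (0.1999), edgeR's test for a change larger than the limit on logFC. Its partner Ccdc39 had 28.1 to 31.1 CPM in CONT and 33.1 to 39.2 in INT and was not called (logFC 0.31 ± 0.22, FDR 0.267). Ccdc39 shares 1256 exon bases with Ttc14 on the opposite strand, a gene at 175 to 246 CPM, and the strand setting of the counting is not given in the sources used here.

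The dynein heavy chains, the motor subunits, gave 8 of the 16 higher genes. Of the 15, 12 were tested, 8 were higher (beside 20.9% of all genes) and 1 was lower (12.7%). For 6 of the 8 the filter was passed through mated libraries alone, so these counts describe the tested chains only. Of the 5 outer arm heavy chains 4 were tested and 2 were higher, and of the 10 inner arm chains 8 were tested, 6 being higher and 1 lower.

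Dnah5 (chr15:28203752-28472045, plus strand), an outer arm heavy chain, had 0.119, 0.287 and 0.834 CPM in CONT, or 2, 8 and 11 counts. It had 11.95, 12.2, 10.6 and 27.2 CPM in INT. Every INT library was at least 10 times the highest CONT library, and INT replicate 4 was far above the other 3. The logFC was 5.30 ± 0.81 with an edgeR FDR of 7.78e-05, while limma-voom gave 5.48 with an FDR of 0.109. Dnah5 passed the filter only through mated libraries.

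Dnah1, an inner arm heavy chain, had 1.90, 2.80 and 2.50 CPM in CONT and 8.85, 7.94, 11.1 and 13.6 in INT (logFC 2.10 ± 0.30, FDR 4.05e-05), with no overlap. Dnah14, the heavy chain with the most reads in these libraries, went from 29.8, 24.8 and 35.03 CPM in CONT to 66.1, 66.9, 61.9 and 120 in INT (logFC 1.40 ± 0.25, FDR 0.000310), and here too INT replicate 4 stood above the rest. Per kilobase its mean in INT, 4.85, was similar to that of the shorter Ccdc39, 4.89. Dnah2 (logFC 1.81 ± 0.30) and Dnah8 (1.82 ± 0.38), the latter an outer arm chain best known from sperm, were higher too.

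Dnah6 (1.32 ± 0.38), Dnah7b (1.22 ± 0.16) and Dnah7c (1.20 ± 0.22) were the other inner arm chains called higher. Dnah7b and Dnah7c are close copies of one gene, as is Dnah7a, which had at most 0.467 CPM, and how reads were divided among these copies cannot be told from the counts. The levels of Dnah7b, 11.4 to 16.4 CPM in CONT and 28.3 to 38.3 in INT, were more than 10 times those of Dnah7c, 0.951 to 1.15 and 1.89 to 3.22 CPM.

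Dnah12 (chr14:26693274-26891703, plus strand), also an inner arm heavy chain, went the other way. It had 20.7, 14.3 and 28.4 CPM in CONT and 3.55, 3.78, 0.456 and 0.210 CPM in INT. INT replicates 1 and 2 lay above INT replicates 3 and 4, and all 4 lay under CONT. The logFC was -3.40 ± 0.93 with an edgeR FDR of 0.00659, and the gene passed the filter through 7 libraries, 3 of them CONT. Dnah10 (0.10 ± 0.28), Dnah17 (0.04 ± 0.74) and Dnah11 (-0.43 ± 0.39) were not called. Dnah17 was at 17.2 to 19.4 CPM in CONT and 17.8 to 20.5 in INT. Its error is estimated over all libraries, among them VAS replicates 2 and 3 with 0.467 and 1.22 CPM.

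**Figure D2:**
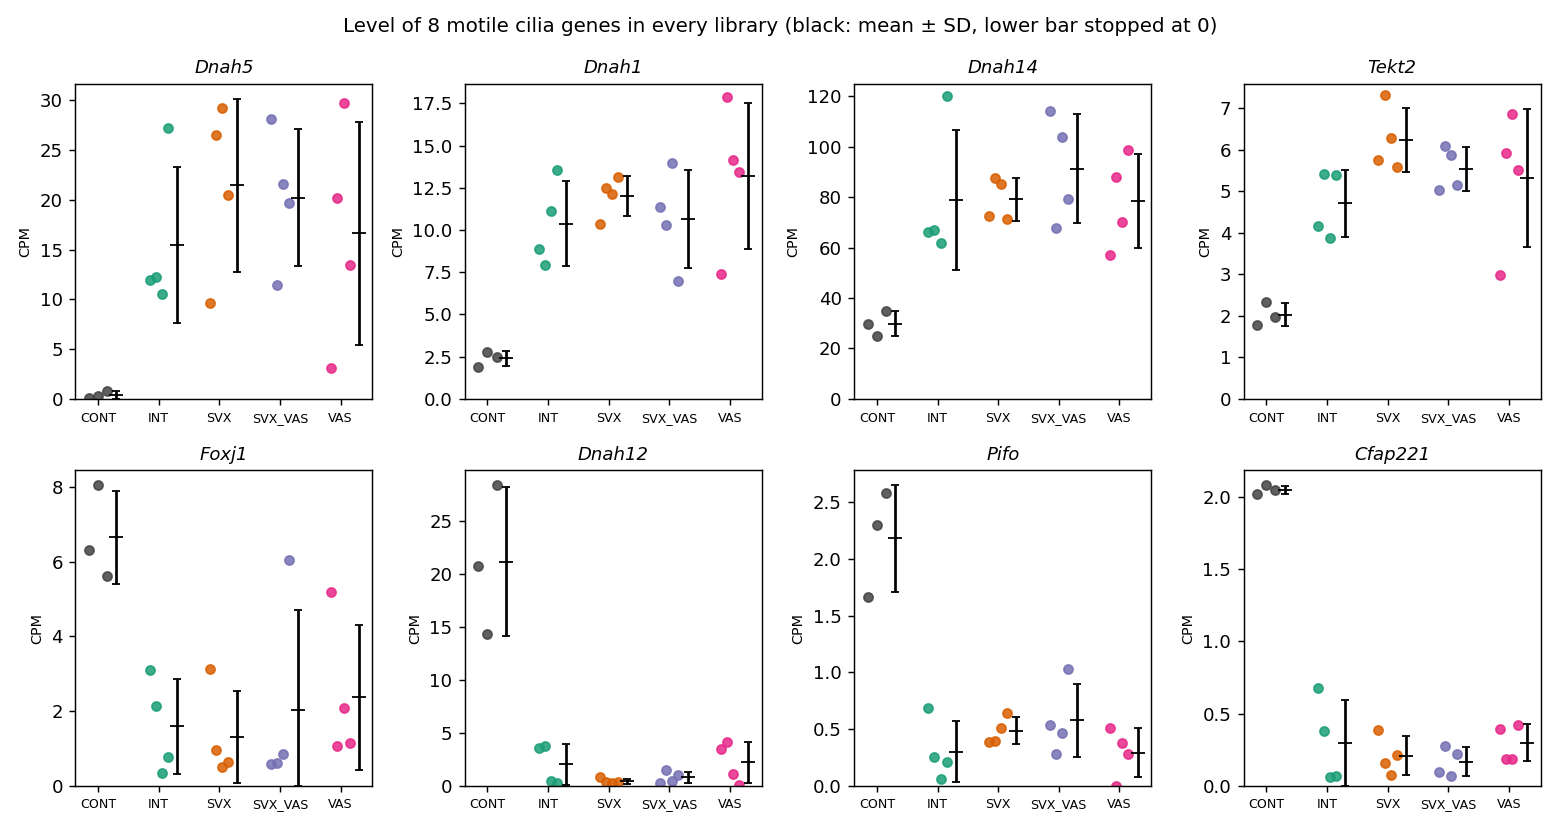
Level in CPM (vertical axis, from 0) of 8 motile cilia genes in the libraries of the 5 groups, one point a library, with mean ± SD in black. In the upper row (Dnah5, Dnah1, Dnah14, Tekt2) the 16 mated libraries lie above the 3 CONT libraries, and in the lower row Dnah12, Pifo and Cfap221 lie below them, while Foxj1 reached 6.03 CPM in SVX_VAS replicate 4, inside the CONT range.

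The intermediate and light chains were weakly expressed. Dnali1, an inner arm chain, had 1.82 to 2.66 CPM in CONT and 2.12 to 3.15 in INT and was not called (logFC 0.36 ± 0.62, FDR 0.676). That error too is taken over all libraries, with Dnali1 at 0.280 and 0.282 CPM in VAS replicates 2 and 3. Dnaic2, an outer arm intermediate chain, had 0.503 to 0.607 CPM in CONT and 1.36 to 2.02 in INT, and with the 1 CPM minimum it was higher (logFC 1.46 ± 0.34, edgeR FDR 0.00236). Dnaic1, its partner in the outer arm, had at most 0.368 CPM in any library.

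Of the 31 Cfap genes 12 were tested, with 4 higher (33.3%, beside 20.9% of all genes), 1 lower (8.33%, beside 12.7%) and 7 not called. Cfap70, which associates with the outer arm, rose from a mean of 1.10 ± 0.136 to 3.79 ± 1.23 CPM (logFC 1.77 ± 0.36, FDR 0.000804). Cfap300, a dynein assembly factor, rose from 2.59 ± 0.501 to 8.38 ± 0.901 CPM (logFC 1.69 ± 0.26, FDR 7.96e-05) and Cfap74, of the central apparatus, from 7.15 ± 0.381 to 18.1 ± 1.51 CPM (1.34 ± 0.17, FDR 1.79e-05). Cfap36, among the most abundant members, rose by 0.85 ± 0.12 on the log2 scale.

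Cfap100, which ties an inner dynein to the doublet, was the tested Cfap gene that was lower: 6.00, 7.90 and 9.86 CPM in CONT against 4.99, 3.09, 3.37 and 3.29 in INT (logFC -1.10 ± 0.31, FDR 0.00838). That call is lost with glmTreat (FDR 0.0805). Cfap298 lay at the edge, with an FDR of 0.0191 and a logFC of -0.57 ± 0.19 that is just short of the limit. It was called lower with the 1 CPM minimum (-0.62), with filterByExpr (-0.61), with no filter (-0.60) and without CONT replicate 4 (-0.65) or INT replicate 2 (-0.62). Cfap20 had a logFC of 0.28 ± 0.07 with an FDR of 0.00236, also under the limit on size, and Cfap97 was at 40.9 to 42.7 CPM in CONT and 42.0 to 47.7 in INT (0.08 ± 0.09).

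Some Cfap genes that missed the main filter were called with the looser one. Cfap221, a central apparatus protein, had 2.02, 2.08 and 2.05 CPM in CONT and 0.681, 0.378, 0.0570 and 0.0700 in INT, and with the 1 CPM minimum its logFC was -2.86 ± 0.58 (edgeR FDR 0.000805). It reached 1 CPM in the 3 CONT libraries and in none of the 16 mated ones, so it passed that filter only through the group where it is high. Cfap52, at the inner junction, gave -1.95 ± 0.66 (FDR 0.0231) and Cfap54, of the central apparatus, -0.75 ± 0.24 (FDR 0.0196). In the other direction, Cfap46 (1.83 ± 0.44), also of the central apparatus, and Cfap53 (1.32 ± 0.35) were higher. Both reached 1 CPM in no CONT library, as did Dnaic2 and Tekt1, so these 4 passed only through mated libraries.

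In the nexin link, Drc3 was higher, from 2.43 ± 0.595 to 4.57 ± 0.815 CPM (logFC 0.91 ± 0.28, FDR 0.0122), a call lost without CONT replicate 1 (FDR 0.0681) and with glmTreat (0.155). Drc1 had at most 0.282 CPM in any library. Of the radial spoke genes, Rsph9 was higher (0.87 ± 0.21, FDR 0.00296), though not with glmTreat (FDR 0.117), whereas the near-identical pair Rsph3a (0.16 ± 0.18) and Rsph3b (-0.18 ± 0.17) was not called. Of the tektins, Tekt2 had 1.78, 2.33 and 1.97 CPM in CONT and 4.16, 5.42, 3.88 and 5.39 in INT (logFC 1.21 ± 0.24, FDR 0.000656). Tekt1, with 0.108 to 0.357 CPM in CONT and 0.908 to 1.94 in INT, was higher with the 1 CPM minimum (2.64 ± 0.46), while Tekt4 had 0.682 to 0.892 CPM in CONT and 0.0630 to 0.171 in INT.

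Other motile cilia genes, from 5 lists on multiciliation, dynein docking, dynein assembly, the central apparatus and microtubule proteins, were mostly not called. Of 62 genes 26 were tested, 4 were higher in INT (15.4%, beside 20.9% of all genes), 2 lower (7.69%, beside 12.7%) and 20 not called. Stk33 (logFC 3.42 ± 0.49, from at most 0.287 CPM in CONT), Mns1 (1.13 ± 0.31), Spef2 (1.27 ± 0.43) and Nme7 (0.65 ± 0.25) were higher. Stk33, under 3 CPM in every CONT library, passed the filter only through mated libraries. The dynein assembly list had none of 5 called, with 0.40 for Dnaaf3 and -0.39 for Spag1. Hydin, a large protein of the central apparatus, was lower, at 15.998 to 18.4 CPM in CONT and 3.08 to 12.4 in INT (-1.001 ± 0.35, FDR 0.0282). Myb, which acts in multiciliation and in dividing cells, fell from 258 to 283 CPM to 6.05 to 115 (-2.30 ± 0.87, FDR 0.0375). Left-out libraries decide several of these: 2 genes are called without CONT replicate 1, and 3 without CONT replicate 4, INT replicate 3 or INT replicate 4.

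The intraflagellar transport and primary cilium list, whose genes build cilia of every kind, is a point of reference. All 38 were tested, and 16 were higher in INT (42.1%, beside 20.9% of all genes) and none lower (12.7% of all genes). Ift57 (logFC 1.93 ± 0.20) and Bbs7 (1.92 ± 0.25) changed most. Beside these counts, 8 of 12 endometrial stroma markers were higher in INT than in CONT, as were 7 of 7 endothelium markers, 6 of 7 tested immune cell markers and 4 of 7 uterine gland markers, against the same 20.9%. The other immune cell marker and 1 gland marker were lower. Of the smooth muscle markers 1 of 8 was higher and of the mesothelium markers 1 of 6, with none lower in either list. Of the 3 tested sperm and spermatid markers 1 was higher (33.3%) and none lower. What part other cell types have in the cilia genes was not tested.

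The females mated with modified males are compared with CONT in the same fit, so these comparisons share the 3 CONT libraries with that of INT and are given side by side and not as further evidence. In SVX 16 members were higher (23.1% of all genes) and 4 lower (18.5%), in SVX_VAS 16 higher (22.2%) and 3 lower (16.5%), and in VAS 18 higher (23.3%) and 2 lower (17.3%). Without VAS replicates 2 and 3, VAS had 16 higher (23% of all genes) and 2 lower (13.2%). In that same fit INT had 16 higher and 3 lower, SVX 18 and 5, and SVX_VAS 16 and 4. The matching shares of all genes for these 3 groups are not given here.

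Dnah5 had 9.66, 26.5, 29.3 and 20.5 CPM in SVX, 28.2, 11.4, 21.6 and 19.7 in SVX_VAS and 3.16, 20.2, 29.8 and 13.4 in VAS. Every one of these is above every CONT library. The logFC against CONT was 5.78 ± 0.82, 5.69 ± 0.82 and 5.41 ± 0.81. Without VAS replicates 2 and 3 that of VAS was 4.45 ± 0.78.

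Dnah12 had 0.779, 0.315, 0.219 and 0.358 CPM in SVX, 0.241, 1.44, 0.396 and 1.03 in SVX_VAS and 3.49, 4.11, 1.13 and 0.0706 in VAS. All lie under the lowest CONT library, 14.3 CPM. The logFC was -5.64 ± 1.06, -4.76 ± 0.996 and -3.25 ± 0.92, that of VAS being -3.48 ± 1.06 without VAS replicates 2 and 3. In Tekt2 the same 3 comparisons gave 1.61 ± 0.24, 1.44 ± 0.24 and 1.38 ± 0.24, and in Dnah1 2.32 ± 0.30, 2.14 ± 0.30 and 2.45 ± 0.30. Without those 2 libraries VAS gave 1.07 ± 0.24 in Tekt2 and 2.12 ± 0.31 in Dnah1.

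Foxj1 varied widely among libraries of one group. It had 3.12, 0.944, 0.512 and 0.645 CPM in SVX, 0.580, 0.610, 0.857 and 6.03 in SVX_VAS and 5.19, 1.07, 2.07 and 1.13 in VAS. One library of SVX_VAS thus lies within the CONT range, and VAS replicate 1 lies just under it. The logFC against CONT was -2.35 ± 0.90 in SVX, called with an FDR of 0.0344, and -1.74 ± 0.87 (FDR 0.105) and -1.49 ± 0.86 (FDR 0.151) in SVX_VAS and VAS. Without VAS replicates 2 and 3 that of VAS was -1.03 ± 0.995 (FDR 0.403).

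Cfap298 was lower in SVX (-0.82 ± 0.19) and SVX_VAS (-0.73 ± 0.19). Rfx2 (0.87 ± 0.26) and Cfap43 (0.60 ± 0.13) were higher in VAS. Without VAS replicates 2 and 3, Rfx2 stayed inside the threshold (0.75 ± 0.30, FDR 0.0498) and Cfap43 fell short of the limit on size (0.43 ± 0.12). Ccdc40, higher in VAS with all libraries (1.13 ± 0.32, edgeR FDR 0.00647), lost its call without those 2 (0.79 ± 0.35, edgeR FDR 0.0677). Pifo, with the 1 CPM minimum, was lower in SVX (-2.18 ± 0.64), SVX_VAS (-1.97 ± 0.62) and VAS (-2.91 ± 0.65, with all 4 VAS libraries), with the same limit from the filter.

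**Figure D3:**
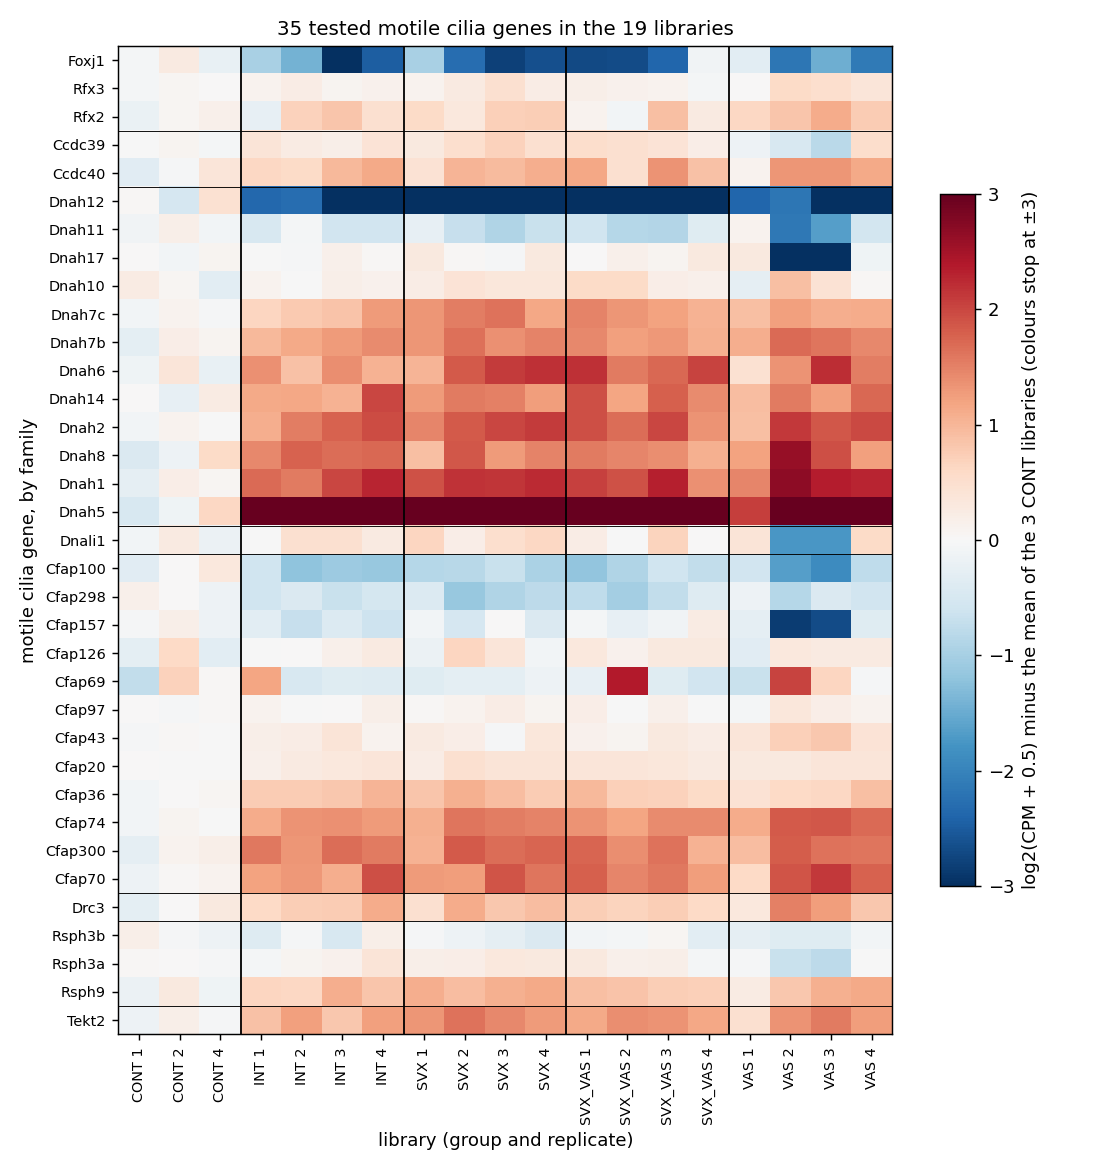
Level of the 35 tested motile cilia genes (rows, by family) in the 19 libraries (columns, by group), as log2(CPM + 0.5) minus the mean of the 3 CONT libraries. Red marks genes above CONT and blue those below, and Dnah5 and Dnah12 are the strongest rows across the 16 mated libraries, while Cfap69 stands out in single libraries.

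The comparison among the mated groups asks whether the mate mattered. In edgeR, none of the 35 tested members was called between SVX and INT, between SVX_VAS and INT or between VAS and INT, where 0% of all genes were called, and none differed among the 4 mated groups (0% of all genes). At an unadjusted p under 0.05 there were 2, 2, 5 and 5 members, beside 4.35%, 1.97%, 10.6% and 7.04% of all genes. Without VAS replicates 2 and 3 these were 4, 3, 0 and 4 members, beside 5.89%, 3.53%, 0.894% and 2.6% of all genes. With all libraries, DESeq2 called none of the 35 in any of the 4 comparisons, where it called 0.0174%, 0.0116%, 0% and 0.0813% of all genes. Limma-voom called 1 member between VAS and INT, Dnah17, where it called 9.66% of all genes, and 4 among the mated groups, Ccdc39, Cfap157, Dnah17 and Rsph3a, where it called 8.11%. Without VAS replicates 2 and 3, edgeR again called none.

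The errors of these differences are wide for the genes of largest change. Between SVX and INT, Dnah12 gave -2.24 ± 0.98 and Dnah5 0.47 ± 0.55, and Foxj1 gave -0.28 ± 0.86. For Dnah7c the logFC was 0.60 ± 0.19 with an FDR of 0.9997. Such values do not show that the groups are alike.

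VAS replicates 2 and 3 bear on single members. Dnah17 had 0.467 and 1.22 CPM there against 16.7 to 22.6 in the other 17 libraries, Cfap157 0.373 and 0.470 against 3.40 to 6.99, and Dnali1 0.280 and 0.282 against 1.82 to 3.69. Of the 15 tested members that share exon bases with a gene on the opposite strand these 3 were under 0.5 times the lowest other library in both, and of the 20 without such overlap none was. Dnah17 shares 245 exon bases with Pgs1, whose level in the 2 libraries, 59.6 and 58.8 CPM, was within the range of the others. With both libraries outside the range of the other 17, 7 of the 15 overlapping members were below it (Ccdc39, Cfap100 and Rsph3a among them), 2 were above it, Cfap74 and Dnah8, and 6 were neither. Of the 20 others none was below and 4 were above it. Ccdc39 and Rsph3a, called by limma-voom, also overlap such a gene. The matching shares of all genes are not given here, and whether these counts are particular to motile cilia genes was not tested. Whether strand in the counting is the reason was not tested.

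**Figure D4:**
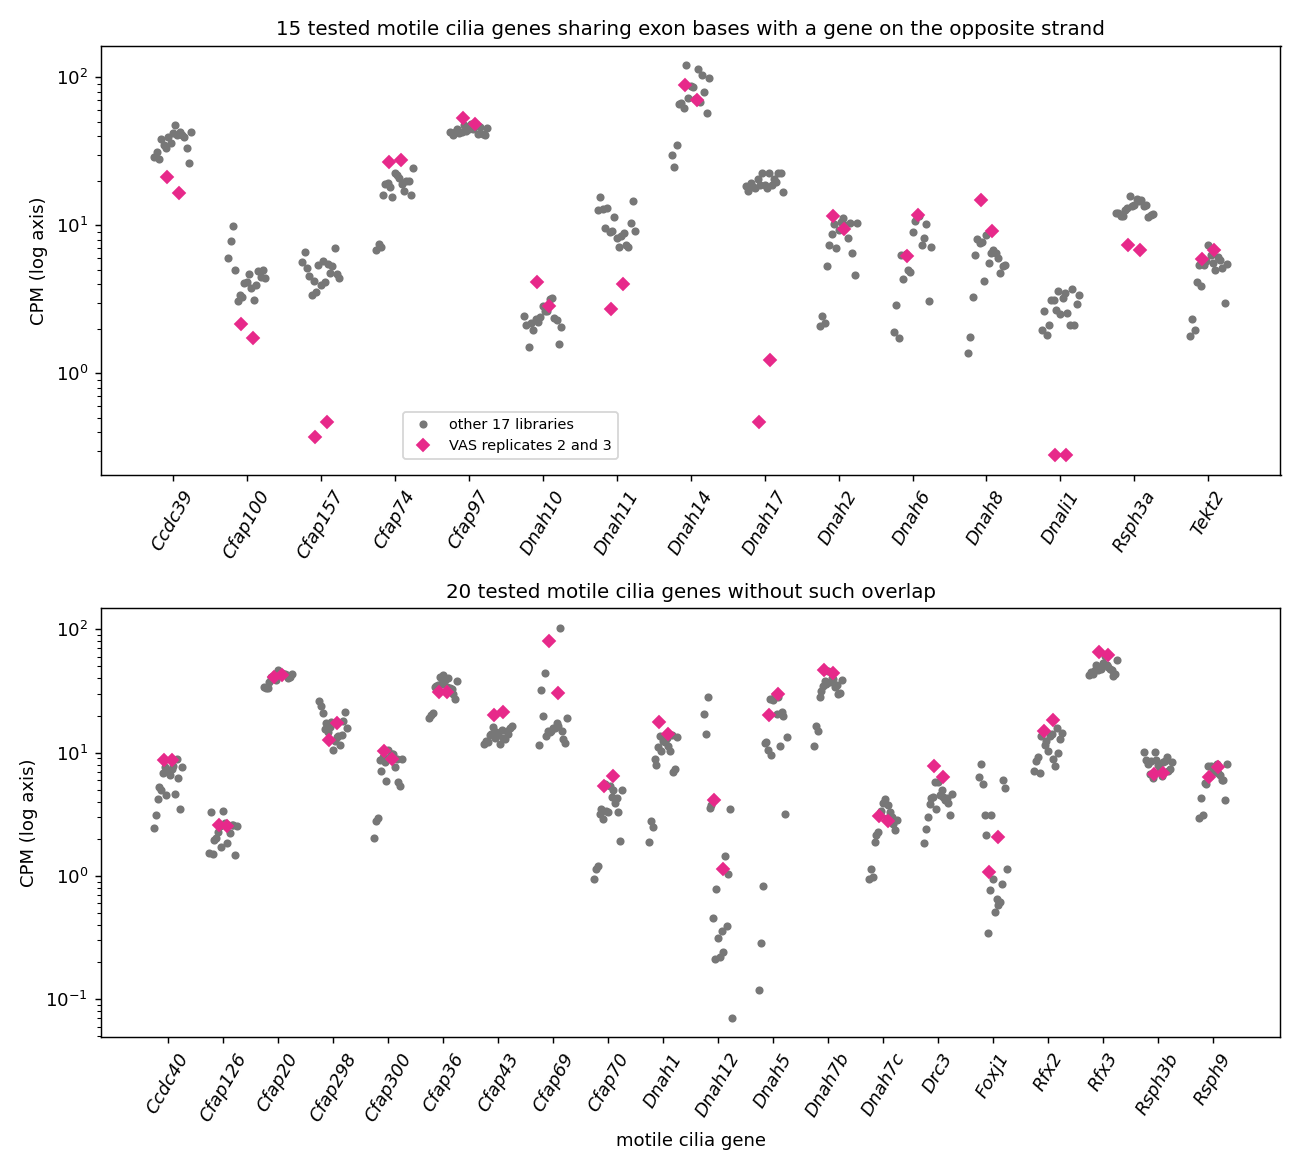
Level in CPM (vertical log axis) of the 35 tested motile cilia genes in VAS replicates 2 and 3 (diamonds) and in the other 17 libraries (dots), with the 15 that share exon bases with a gene on the opposite strand above and the 20 that do not below. In the upper panel the diamonds lie under all dots for 7 genes and over them for Cfap74 and Dnah8, and in the lower panel they lie under all dots for none.

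Of 12 uterine epithelium markers 8 were lower in INT than in CONT (12.7% of all genes), and of 10 tested estrogen-response genes 1 was lower and 9 were not called. In SVX, SVX_VAS and VAS, 10, 9 and 9 of the epithelium markers were lower than in CONT. Of the estrogen-response genes these were 9, 3 and 4, beside 18.5%, 16.5% and 17.3% of all genes. Without VAS replicates 2 and 3, VAS had 5 epithelium markers and 1 estrogen-response gene lower (13.2% of all genes). The summed level of 11 estrogen-response genes was 17676 to 19894 CPM in CONT and 264 to 12701 in the 16 mated libraries, and that of 12 uterine epithelium markers was 4786 to 6414 against 797 to 3117. Ltf, an estrogen-induced epithelial gene, ran from 15.5 to 2301 CPM in the mated libraries and from 1875 to 2848 in CONT, and Epcam, an epithelial marker, was lower in INT (logFC -1.52, FDR 0.0385). The 8 mated libraries with the most Ltf, from 152 CPM up, were also the 8 with the most Dnah12, from 0.779 CPM up. Of the 8 with the most Foxj1, 7 were among them, against 6 for Cfap221, 4 for Cfap52, 3 for Pifo and 2 each for Dnah5 and Dnah14. The 8th and 9th highest levels were 0.215 and 0.188 CPM in Cfap221, 0.627 and 0.565 in Cfap52 and 0.393 and 0.389 in Pifo, all low counts. Sets of 8 taken from 16 libraries also share members by chance, and the overlaps were not tested against that. This is a description of 16 libraries, and the part of epithelial or hormonal state in these genes was not tested.

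**Figure D5:**
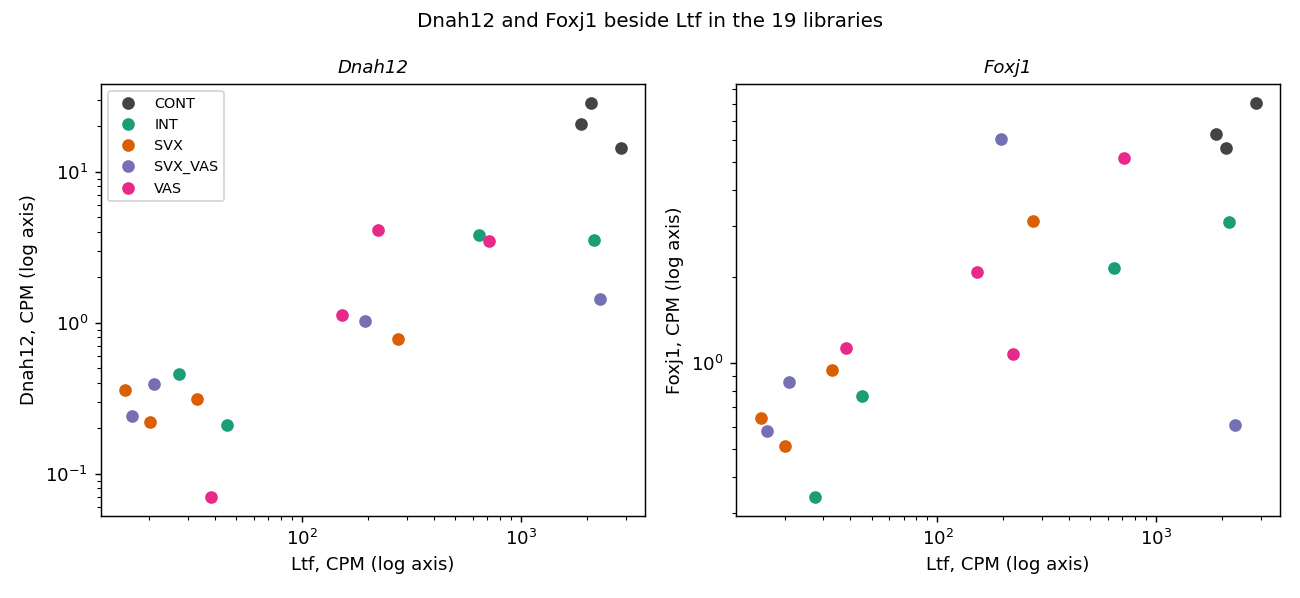
Dnah12 (left) and Foxj1 (right) in CPM against Ltf in CPM, both on log axes, one point a library, coloured by group. CONT lies at the upper right in both. The 8 mated libraries with the most Ltf are, as a set, the 8 with the most Dnah12, though their order differs.

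The oviduct marker Ovgp1 was at 3.34 to 10.7 CPM in CONT and 9.75 to 41.1 CPM in the mated libraries, where it was higher in INT (logFC 1.79 ± 0.44, FDR 0.00334). The oviduct epithelium list, 6 genes with Ovgp1 among them, summed to 457 to 500 CPM in CONT and 352 to 568 in the mated libraries. Of its 5 tested genes 2 were higher in INT (beside 20.9% of all genes), 1 was lower (12.7%) and 2 were not called. The part of oviduct tissue in the cilia genes was not tested.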

How the data were processed

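Counts per gene were deposited by the authors, who per the study's methods trimmed adapters with AdapterRemoval version 2, aligned paired reads of stranded total RNA libraries to GRCm38 with STAR and counted them with featureCounts. Other versions and the strand setting of the counting are not given in the sources used here. The reads were not used. All 19 libraries entered one fit in edgeR 4.0.16 (R 4.3.3), with TMM factors, glmQLFit and glmQLFTest and no replicate block, after a filter of 3 CPM reached by 3 or more libraries. CPM were scaled with the TMM factors. Calls needed a Benjamini-Hochberg FDR of 0.05 or less over all genes tested and an absolute logFC of 0.58 or more. The fit was also run on simulated counts in which 200 genes had a known change in INT, and the outcome is not given here. Those counts held no libraries that stand apart as VAS replicates 2 and 3 do, so the run does not bear on them. Exon overlaps and gene positions came from the exon lists deposited with the counts, gene types from GENCODE M21 and promoter sequences from RefSeq (GRCm38.p6). Figures were drawn with matplotlib 3.10.9.

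Members named were the regulators and ruler genes, the largest changes, highest levels and opposite changes of each family, and the largest changes of each list. Others were chosen after their values were seen. Membership followed from the symbol rule, but that rule and the lists were chosen with earlier results of these data known. Alternatives were DESeq2 1.42.0, limma-voom (limma 3.58.1), other scalings, filters and cutoffs, glmTreat, a replicate block, only the groups compared, each library left out and, chosen after seeing the data, VAS replicates 2 and 3 left out together.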

Additional observations from a re-analysis of the deposited data

Results flagged for a closer look

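Over the 35 tested genes in the 4 mated groups, each of 140 sets of 4 libraries was examined for a single library standing apart (Dixon's ratio). In 11 sets there was one, and about 1 in 20 sets would have one by chance. Cfap69, a protein of the sperm midpiece and cilium, had 44.5 CPM in INT replicate 1 against 13.7 to 14.9 in the other INT libraries, and 103 CPM in SVX_VAS replicate 2 against 12.9 to 16.3. Foxj1 had 3.12 CPM in SVX replicate 1 against 0.512 to 0.944, and 6.03 in SVX_VAS replicate 4 against 0.580 to 0.857. INT replicate 4 was high in Dnah5 (27.2 CPM against 10.6 to 12.2) and in Dnah14 (120 against 61.9 to 66.9). Dnah11 had 13.0 CPM in INT replicate 2 against 9.07 to 9.61, and Cfap100 had 4.99 in INT replicate 1 against 3.09 to 3.37. Low values were those of Cfap126 in SVX_VAS replicate 2 (2.22 CPM against 2.57 to 2.61) and in VAS replicate 1 (1.47 against 2.54 to 2.61), and of Cfap20 in SVX_VAS replicate 4 (40.5 against 42.7 to 43.2).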

How the results depend on the processing

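The counts of members higher than in CONT stayed within 1.5 times the main count under all 12 alternatives in each of the 4 comparisons (12 to 21 in INT, 14 to 23 in SVX, 12 to 22 in SVX_VAS, 13 to 24 in VAS). The few lower members moved more, mainly because the filter sets how many low genes are tested. Shares of all genes are not given for most settings, so the counts do not show whether members moved more than other genes. Lower in INT were 7 with the 1 CPM minimum (12.8% of all genes), 7 with filterByExpr, 8 without a filter and 1 with glmTreat (Dnah12, Cfap100 being lost). In SVX the counts were 9, 9, 11 and 1. In SVX_VAS the counts were 10, 11, 10 and 1. In VAS they were 7, 7 and 9 with these filters, 7 with limma-voom and 1 with only the groups compared. With each library left out in turn, lower members were 2 to 3 in INT, 2 to 4 in SVX (2 without CONT replicate 4), 2 to 4 in SVX_VAS and 2 to 6 in VAS (6 without VAS replicate 1). Between VAS and INT 0 to 1 member was called (Rsph3a without VAS replicate 1, Ccdc39 without VAS replicate 4, Dnah17 with limma-voom), and among the mated groups 0 to 1 (Ccdc39 without VAS replicate 4), or 4 with limma-voom. The cause was not tested. Called other motile cilia genes were 12 with each looser filter, 1 with glmTreat and 2 to 8 on leaving out libraries, and intraflagellar transport genes were 26 without a cutoff on size. For 24 named members, 718 of 742 logFC values kept direction and side of the threshold, 10 lost the call, 14 gained it and 0 reversed.

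The replicate numbers are not said to mark a shared day or animal, and of 36 same-numbered pairs only 15 had deviations that correlated above 0.1 (-0.688 to 0.58). With the replicate block, 16 members were higher and 2 lower in INT, 16 and 4 in SVX, 16 and 3 in SVX_VAS, and 17 and 2 in VAS. Depth limits the low members: 3 counts, the limit that a count of 0 allows, are 0.108 to 0.236 CPM, for counting error only.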
